A study of Mus musculus with 6 samples.

Results

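The genes of collagen, laminin and integrin chains were followed across 3 populations of mouse lung epithelium. Members were the protein-coding rows of the deposited table whose symbol marks a collagen, laminin, nidogen, integrin or thrombospondin chain, with the matrix genes Chad and Egfl6 added. The rule found 76 of 22239 genes: 6 type IV collagens, 31 other collagens, 9 laminins, 13 integrin alpha and 9 integrin beta chains, 2 thrombospondins, Chad, Egfl6, and 4 genes caught by their names alone. These 4, Col4a3bp, Itgb1bp1, Itgb1bp2 and Itgb3bp, encode other kinds of protein and were kept apart. No row matched the nidogen pattern. Bulk RNA sequencing covered 6 samples from mice aged 8 weeks, 2 in each population. Bronchioalveolar stem cells (BASC) were sorted as CCSP-mCherry+/SPC-YFP+, alveolar type 2 (AT2) cells as SPC-YFP+ and bronchiolar Club cells as CCSP-mCherry+. Lung homogenates had been depleted of CD31- and CD45-bearing cells in every case. CCSP is the product of the Club gene Scgb1a1 and SPC that of the AT2 gene Sftpc, so the reporters define the populations. The labels state no strain and do not tie the replicates to separate mice, so the p-values speak only for the spread among these libraries.

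Epithelial cells rest on a basement membrane, a sheet of laminin and type IV collagen networks joined by linker proteins. A laminin is a trimer of 1 alpha, 1 beta and 1 gamma chain, and a type IV collagen is a triple helix of 3 alpha chains drawn from a small set of allowed combinations. Integrins are receptors of 1 alpha and 1 beta subunit that bind these proteins and link them to the actin or keratin cytoskeleton. In the alveolus the sheet is shared with the capillary wall, and in the bronchiole it underlies the airway lining.

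Values are normalised read counts. From the spacing of low values they were judged to be scaled by 1 factor per sample and rounded. The estimated reads and the limit for a listing of 0 rest on that judgement. Populations were compared with limma on log2(value + 1), a gene was called at an adjusted p under 0.05, and folds are ratios of group means. Levels of different genes were compared per kb of exon. Each sample held an estimated 10121129 to 18203252 reads over the listed genes. A listing of 0 allows up to 3 reads, which came to 2.29 to 4.02 normalised counts, for counting error only. The sort labels matched their marker genes, with Sftpc at 290809 and 307458 in BASC samples, 301267 and 373742 in AT2 samples, and 240 and 224 in Club samples. Scgb1a1 stood at 43993 and 58791 in BASC samples, 413 and 302 in AT2 samples, and 751642 and 760675 in Club samples. Markers of other cell types were uneven. Summed ciliated markers, 8 of 8 listed, lay at 3203 to 3205 in BASC samples, 2471 to 2763 in AT2 samples, and 11059 to 11225 in Club samples. Tubb4b and Tppp3 made up most of the sums in BASC and AT2 samples. The ciliated factor gene Foxj1 had 115 and 100 in BASC samples, 96 and 40 in AT2 samples, and 795 and 825 in Club samples. All 8 markers were highest in the Club samples. Basal markers, 4 of 6 listed, summed to 56 to 74 in BASC samples, 14 to 83 in AT2 samples, and 196 to 595 in Club samples. There Krt15 alone gave 552 and 187, the basal factor gene Trp63 reached 18 and 8, and Krt5 had 25 and 0. Dlk2 did not follow, with 24 and 1 in BASC samples, 4 and 0 in AT2 samples, and 0 and 1 in Club samples. The fibroblast markers Dcn and Pdgfra, the 2 listed markers of 8 that are not members, summed to 1 and 0 in BASC samples, 71 and 0 in AT2 samples, and 11 and 5 in Club samples. AT1 markers, 9 of 9 listed, summed to 17802 to 18191 in BASC samples, 17431 to 19856 in AT2 samples, and 8877 to 9685 in Club samples. Ager, Aqp5 and Emp2 made up most of the sums in BASC and AT2 samples. Hopx, Pdpn and Clic5 went the other way and were highest in Club samples. Pdpn was listed at 0 in both BASC samples, and had 6 and 17 in AT2 samples and 561 and 457 in Club samples. Smooth muscle and pericyte markers, 6 of 8 listed, summed to 93 to 173 in BASC samples, 140 to 142 in AT2 samples, and 1399 to 1657 in Club samples, where Notch3 alone gave 1377 and 1623. Leukocyte markers, 4 of 8 listed, were mostly Lyz2, which AT2 cells also express, and summed to 254868 to 262841 in BASC samples, 178526 to 180176 in AT2 samples, and 1211 to 2342 in Club samples. Endothelial markers, 4 of 8 listed, summed to 75 to 98 in BASC samples, 75 to 82 in AT2 samples, and 54 to 74 in Club samples. The mesothelial gene Msln, the only 1 of 4 listed, had 1 and 2 in BASC, was listed at 0 in AT2, and had 379 and 182 in Club samples. Their part in the differences below was not tested. In sorted bulk samples, fewer cells of a type and less RNA per cell cannot be told apart.

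Members differed mainly between Club cells and the populations carrying SPC-YFP. Against Club cells, 19 members were higher and 7 lower in BASC, 39 were tested without a call and 11 had too few counts to be tested. Of all 17721 genes tested, 11.2% were called, 5.77% higher and 5.42% lower, while the 26 called members made up 34.2% of the 76. AT2 cells against Club cells gave 21 members higher and 11 lower, 42.1% of the 76, where 18.1% of all genes tested were called, 8.42% higher and 9.71% lower. The member shares count all 76, tested or not, while the other shares count tested genes only, protein-coding or not. Between BASC and AT2 cells limma called 0.632% of all genes tested, 0.553% higher and 0.0790% lower in BASC, and among the members 0 were higher and 1 was lower, a call lost without any 1 of the 6 libraries (adjusted p between 0.0565 and 0.251). Without adjustment, of the 65 tested members 9 had a higher and 12 a lower level in BASC at p under 0.05. Of all 17721 genes tested, 1257 were higher and 1079 lower at that threshold. These shares were not compared by a test. Without any 1 BASC or Club library, the 7 lower members in BASC against Club cells became 3, and the 11 in AT2 became 7 without AT2 replicate 1 and 6 without either Club replicate. The comparisons share samples, so their calls are not independent of each other. Of the 26 calls against Club cells in BASC, 12 held in every alternative tried, and of the 32 in AT2, 19 did.

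**Figure D1:**
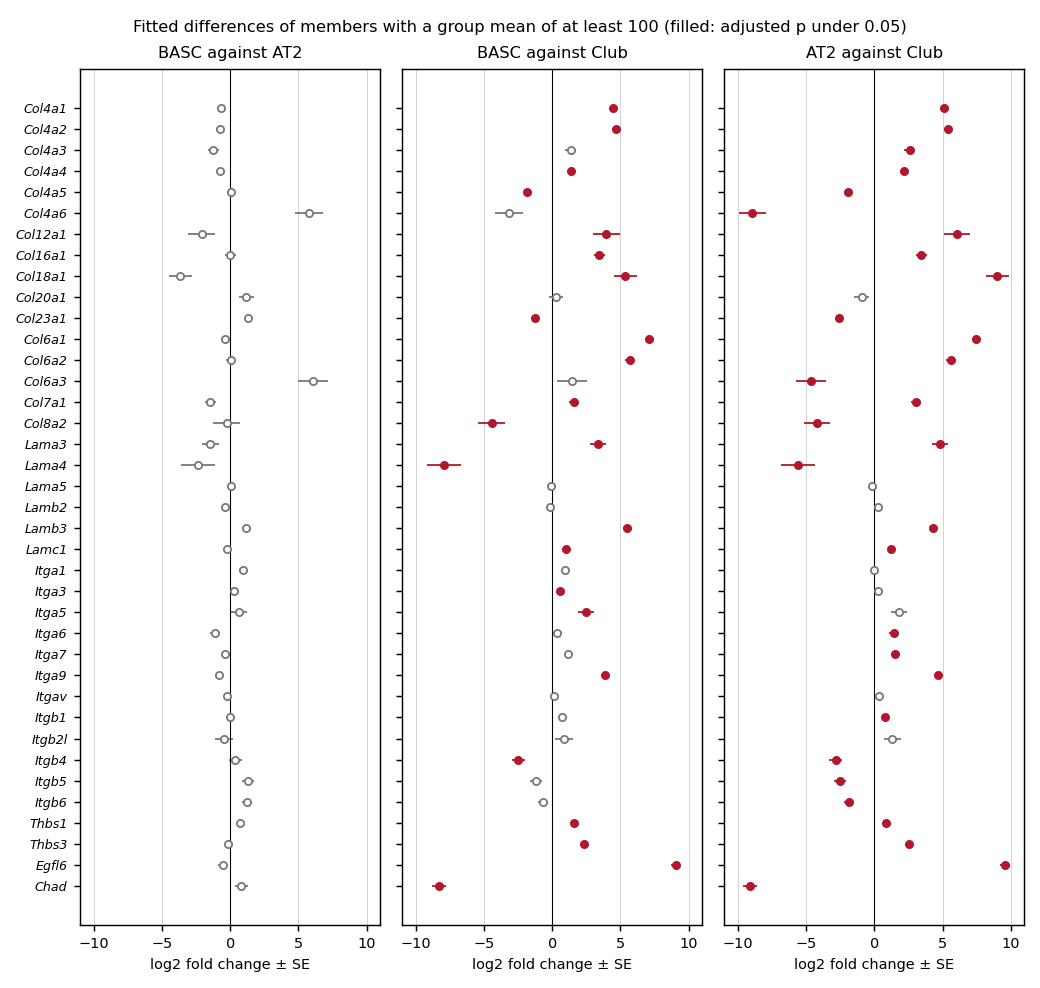
Fitted log2 fold changes with SE for 38 tested members with a mean of at least 100 in some population, in BASC against AT2, BASC against Club and AT2 against Club (2 samples per population). Filled points have a limma adjusted p under 0.05; none of those drawn is filled on the left (1 such member is not drawn), while Egfl6 and Chad lie farthest from 0 in the comparisons with Club cells.

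Type IV collagens divided the populations by gene pair. The 6 chains are encoded in 3 head-to-head pairs, each with its starts close together on opposite strands. Col4a1 and Col4a2, the chains of the common basement membrane network, were high in BASC and AT2 and low in Club cells. Col4a1 (ENSMUSG00000031502, GRCm38 chromosome 8, 11198423 to 11312826) had 5850 and 6476 normalised counts in BASC samples, 9076 and 10611 in AT2 samples, and 230 and 340 in Club samples. Col4a2 (ENSMUSG00000031503, chromosome 8, 11312805 to 11449287) had 5432 and 5188 in BASC samples, 8812 and 8847 in AT2 samples, and 156 and 289 in Club samples. No sample of one population overlapped another for either gene. Col4a1 was 21.6-fold higher in BASC than in Club cells (log2 fold change of 4.46 with an SE of 0.20 from 2 samples each, adjusted p = 3.33e-05 in limma) and 34.5-fold higher in AT2 than in Club cells (adjusted p = 8.96e-06). For Col4a2 the folds were 23.9 in BASC (adjusted p = 7.61e-05) and 39.7 in AT2 (adjusted p = 2.26e-05). BASC had 1.60-fold less Col4a1 and 1.66-fold less Col4a2 than AT2 by their means, without a call (adjusted p = 0.209 and 0.291). Per kb of exon, Col4a1 stood at between 0.913 and 1.31 times the level of Col4a2 in the 6 samples.

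Col4a3 and Col4a4, which with Col4a5 form the network found in the alveolar and glomerular membranes, followed a graded order. Col4a3 (ENSMUSG00000079465, chromosome 1, 82586976 to 82722059) had 510 and 782 in BASC samples, 1031 and 2151 in AT2 samples, and 192 and 321 in Club samples. Col4a4 (ENSMUSG00000067158, chromosome 1, 82448423 to 82586849) had 1372 and 1558 in BASC samples, 2258 and 2787 in AT2 samples, and 497 and 609 in Club samples. For both genes every BASC sample lay below every AT2 sample and above every Club sample. Col4a4 was 2.65-fold higher in BASC than in Club cells (adjusted p = 0.00344) and 4.56-fold higher in AT2 than in Club cells (adjusted p = 0.000266). Its call in BASC was lost without a trend in the variance model (0.0641). Col4a3 was 6.20-fold higher in AT2 than in Club cells (adjusted p = 0.00575, but 0.0560 without that trend). Its 2.52-fold difference between BASC and Club cells was not called (adjusted p = 0.0901). The differences between BASC and AT2 were not called for either gene (adjusted p = 0.266 for Col4a3 and 0.133 for Col4a4).

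Col4a5 and Col4a6, which together form the network of airway, skin and smooth muscle membranes, ran the other way. Col4a5 (ENSMUSG00000031274, chromosome X, 141475385 to 141689234) had 646 and 884 in BASC samples, 775 and 673 in AT2 samples, and 2593 and 2918 in Club samples. Col4a6 (ENSMUSG00000031273, chromosome X, 141165403 to 141474076) had 189 and 170 in BASC samples, 0 and 10 in AT2 samples, and 1660 and 1581 in Club samples. BASC and AT2 samples overlapped for Col4a5, whereas for Col4a6 the populations stood in 3 separate steps. Col4a5 was 3.60-fold lower in BASC than in Club cells (adjusted p = 0.00139) and 3.81-fold lower in AT2 than in Club cells (adjusted p = 0.000721). Col4a6 was lower in AT2 than in Club cells (log2 fold change -8.93 ± 1.02, adjusted p = 0.00122). In BASC its differences were not called, neither from AT2 (log2 fold change 5.76 ± 1.02, adjusted p = 0.0735) nor from Club cells (-3.17 ± 1.02, adjusted p = 0.10). The log2 fold change from AT2 was 4.03 without AT2 replicate 1 and 7.49 without AT2 replicate 2. With AT2 left at 1 sample, its spread of 0 and 10 drops out, so these fits cannot settle either difference. Per kb of exon, Col4a1 exceeded Col4a5 by 6.59 to 8.15 times in BASC and by 10.5 to 14.2 times in AT2, while in Club samples it stood at 0.0798 and 0.105 of Col4a5.

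**Figure D2:**
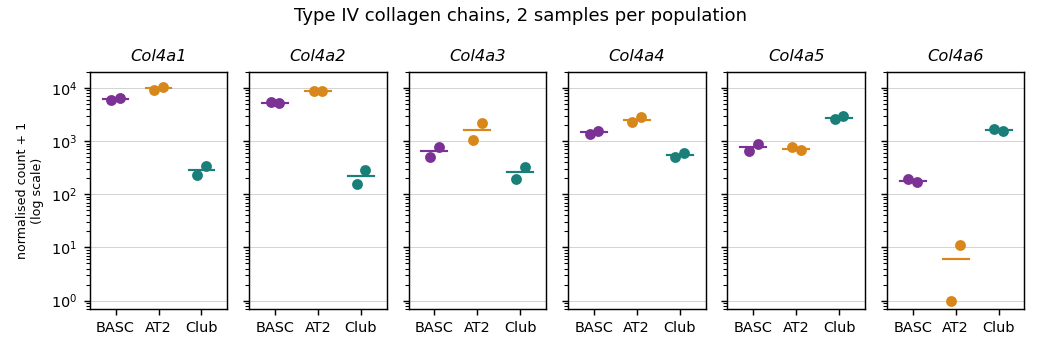
Normalised read counts plus 1 on a log axis for the 6 type IV collagen genes, with 1 point per sample and a line at the mean of each population (BASC, AT2, Club). Col4a1 to Col4a4 are lowest in Club cells, and Col4a5 and Col4a6 are highest there, with Col4a6 at 189 and 170 in BASC samples against 0 and 10 in AT2 samples.

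Parts of the stretches between the starts are shown for 2 of these pairs. The reason is that both genes of each pair were called in the same direction in AT2 against Club cells. The calls were higher for 2 pairs and lower for the Col4a6 and Col4a5 pair. In the annotation the starts of Col4a1 and Col4a2 overlap by 22 bases, those of Col4a4 and Col4a3 lie 126 bases apart and those of Col4a6 and Col4a5 lie 1308 bases apart, counted between the outermost protein-coding transcripts. Sequences are from RefSeq promoter windows (build GRCm38.p6), 5′ to 3′ on the strand of the named gene. Capitals mark exact matches on either strand. The motifs searched were the box CCAAT, the GC box as GGGCGG, the TATA box as TATAAA, an NKX2-1 core as CAAGTG, a grainyhead-like core as AACNGGTT, an AP-1 core as TGANTCA and a FOXA core as TGTTTAC. The stretch between Col4a4 and Col4a3 is chr1:82586850-82586920 on the minus strand. That before Col4a6 is chrX:141474077-141474326 on the minus strand, and that before Col4a5 is chrX:141475169-141475384 on the plus strand. The Col4a4 and Col4a3 stretch holds 71 of the 126 bases, as it stops at the outermost Col4a3 start of any transcript, 82586921. The rest was not searched.
Col4a4-Col4a3: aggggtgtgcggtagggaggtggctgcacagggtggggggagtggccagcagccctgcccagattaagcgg
Col4a6: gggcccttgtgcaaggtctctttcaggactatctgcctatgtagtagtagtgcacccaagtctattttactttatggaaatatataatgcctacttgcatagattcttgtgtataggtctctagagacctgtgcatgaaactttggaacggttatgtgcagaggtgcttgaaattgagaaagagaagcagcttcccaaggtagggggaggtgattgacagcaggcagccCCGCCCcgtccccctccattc
Col4a5: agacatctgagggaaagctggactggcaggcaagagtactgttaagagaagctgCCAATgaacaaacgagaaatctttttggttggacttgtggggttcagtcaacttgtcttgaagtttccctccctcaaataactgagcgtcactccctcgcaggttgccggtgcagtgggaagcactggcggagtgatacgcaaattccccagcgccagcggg
The first of these had no match and 69.0% G or C. The one before Col4a6 held a single GC box, which 32.7% of all 32851 promoter windows of that length hold, and the one before Col4a5 a single CCAAT box, held by 30.5% of windows of its length. No 2 matches overlapped.

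Laminin chains were called mostly against Club cells. Lama3 and Lamb3 encode chains of the laminin that anchors epithelia through hemidesmosomes, while Lama5 with Lamb2 or Lamb1 and Lamc1 makes up the broader laminin sheet of adult lung. Lamb3 was among the members with the highest levels in BASC. It had 4909 and 5302 in BASC samples, 1938 and 2711 in AT2 samples, and 81 and 157 in Club samples, so that both BASC samples lay above all others. It was 42.9-fold higher in BASC than in Club cells (log2 fold change 5.49 ± 0.32, adjusted p = 7.91e-05) and 19.5-fold higher in AT2 than in Club cells (adjusted p = 0.000137). Its 2.20-fold difference between BASC and AT2 was not called (adjusted p = 0.180), but was when only those populations were fitted (adjusted p = 0.0411) and without Club replicate 1 or 2 (adjusted p = 0.0405 and 0.0427). Hsd11b1 and G0s2, which lie on the other strand within the Lamb3 span, had at most 18 and 104 in any sample; the strand setting is not given in the sources used here. Lama3 had 313 and 614 in BASC samples, 944 and 1531 in AT2 samples, and 77 and 23 in Club samples. It was 9.27-fold higher in BASC than in Club cells (adjusted p = 0.0143, but 0.0616 without BASC replicate 1 and 0.113 without BASC replicate 2) and 24.8-fold higher in AT2 than in Club cells (adjusted p = 0.00190).

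The balance of beta chains differed by population. Per kb of exon, Lamb3 stood at 2.50 and 2.10 times the level of Lamb2 in BASC, 0.653 and 0.933 times in AT2, and 0.0326 and 0.0633 times in Club samples. The 3 populations did not overlap in this ratio, which was not tested.

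Lama5 and Lamb2 were not called in any comparison. Lama5 had 4756 and 3745 in BASC samples, 3818 and 4263 in AT2 samples, and 4451 and 4441 in Club samples. The 95% interval of its log2 difference ran from -0.27 to 0.40 in BASC against AT2 and from -0.41 to 0.26 in BASC against Club cells. Lamb2 had 1809 and 2323 in BASC samples, 2732 and 2674 in AT2 samples, and 2284 and 2280 in Club samples, with intervals from -0.75 to -0.05 in BASC against AT2 and from -0.50 to 0.19 in BASC against Club cells. Lamc1, the common gamma chain, had 1748 and 2019 in BASC samples, 2158 and 2195 in AT2 samples, and 977 and 859 in Club samples. BASC exceeded Club cells by 2.05-fold (adjusted p = 0.00522), and AT2 exceeded them by 2.37-fold (adjusted p = 0.00142). The call in BASC was lost without a trend in the variance model (0.0978). Lama4, a chain known from vascular and mesenchymal membranes, was listed at 0 in both BASC samples, had 12 and 1 in AT2, and 214 and 283 in Club samples. It was at least 73.5-fold lower in BASC than in Club cells (adjusted p = 0.00773), with adjusted p of 0.0502 without BASC replicate 2, 0.0909 without Club replicate 1 and 0.117 without Club replicate 2. AT2 was also lower in Lama4 than Club cells (adjusted p = 0.0209, and 0.0648 without AT2 replicate 2, 0.192 without Club replicate 1 and 0.242 without Club replicate 2). Lamb1 had 46 and 5 in BASC samples, 41 and 88 in AT2 samples, and 88 and 61 in Club samples, and Lama2, with a value above 10 in 1 sample only (88 in AT2 replicate 1), was not tested.

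**Figure D3:**
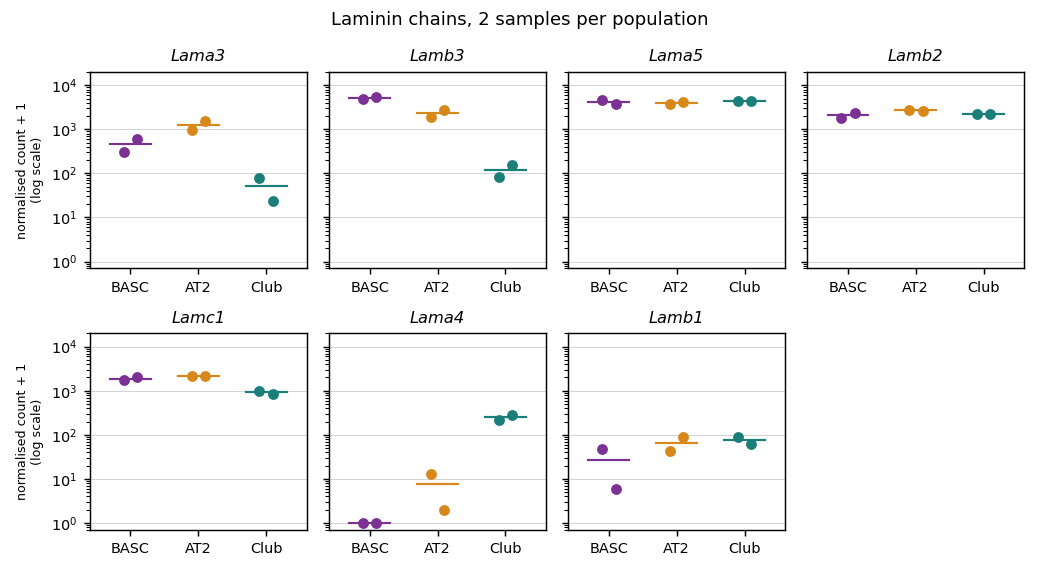
Normalised read counts plus 1 on a log axis for 7 laminin genes, with 1 point per sample and a line at the mean of each population (BASC, AT2, Club). Lama5 and Lamb2 lie within narrow bounds, Lama3 and Lamb3 are lowest in Club cells, and Lamb3 is highest in BASC at 4909 and 5302.

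Among the other collagens, Col6a1 had the highest level per kb of exon in BASC and AT2, at means of 1239 and 1564. Type VI collagen forms beaded filaments next to basement membranes, normally from Col6a1, Col6a2 and Col6a3 chains. Col6a1 had 6381 and 4475 in BASC samples, 6830 and 6872 in AT2 samples, and 54 and 26 in Club samples, which was 136-fold higher in BASC than in Club cells (log2 fold change 7.12 ± 0.33, adjusted p = 3.93e-05) and 171-fold higher in AT2 (adjusted p = 1.56e-05). Col6a2 had 1523 and 1125 in BASC samples, 1281 and 1256 in AT2 samples, and 18 and 34 in Club samples, 50.9-fold higher in BASC (adjusted p = 9.39e-05) and 48.8-fold higher in AT2 (adjusted p = 6.22e-05). Col6a3 did not follow them. It had 110 and 203 in BASC samples, 0 and 4 in AT2 samples, and 36 and 83 in Club samples, with BASC above both other populations. It was lower in AT2 than in Club cells (log2 fold change -4.64 ± 1.10, adjusted p = 0.0274). That call was lost without BASC replicate 2 (adjusted p = 0.0508), AT2 replicate 1 (0.0652), Club replicate 1 (0.0742) or Club replicate 2 (0.198). Col6a5 and Col6a6, other type VI chains, stayed at 48 or less in every sample, without a call. The difference between BASC and AT2 in Col6a3 was not called (6.07 ± 1.10, adjusted p = 0.0794), but was among protein-coding genes only (adjusted p = 0.0429).

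Col18a1, Col7a1, Col12a1 and Col16a1 were called higher in BASC and in AT2 than in Club cells. Col18a1, whose C-terminal fragment is endostatin, had 31 and 51 in BASC samples, 535 and 490 in AT2 samples, and was listed at 0 in both Club samples. BASC exceeded Club cells by at least 14.7-fold (adjusted p = 0.00841) and AT2 did so by at least 183-fold (adjusted p = 0.000491). BASC held 12.5-fold less of it than AT2 by the means, without a call (log2 fold change -3.65 ± 0.84, adjusted p = 0.133; 0.0236 when only BASC and AT2 were fitted). Col7a1, the anchoring fibril collagen, had 166 and 161 in BASC samples, 551 and 368 in AT2 samples, and 48 and 58 in Club samples. It was 8.67-fold higher in AT2 than in Club cells (adjusted p = 0.00182), and 3.08-fold higher in BASC (adjusted p = 0.0380), a call lost without any of 5 libraries, with adjusted p between 0.0533 without AT2 replicate 1 and 0.201 without Club replicate 1. Col12a1, a fibril-associated collagen, had 157 and 224 in BASC samples, 606 and 1078 in AT2 samples, and 35 and 3 in Club samples. Its calls against Club cells (adjusted p = 0.0407 in BASC and 0.00530 in AT2) each depended on single libraries. In BASC the call was lost without either BASC replicate (0.149 and 0.203) or either AT2 replicate (0.0790 and 0.0819), and in AT2 without AT2 replicate 2 (0.0554). Col16a1, also fibril-associated, had 284 and 393 in BASC samples, 384 and 287 in AT2 samples, and 27 and 32 in Club samples (adjusted p = 0.00199 in BASC and 0.00124 in AT2).

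Col23a1, Col8a1 and Col8a2 were higher in Club cells. Col23a1, a transmembrane collagen, had 2027 and 1983 in BASC samples, 1136 and 607 in AT2 samples, and 4563 and 5232 in Club samples, with no overlap between populations. It was 5.62-fold lower in AT2 than in Club cells (adjusted p = 0.000875) and 2.44-fold lower in BASC (adjusted p = 0.0258), the call in BASC being lost without BASC replicate 1 (0.129), BASC replicate 2 (0.141) or Club replicate 2 (0.0780). Against AT2, Col23a1 in BASC was not called with all samples (log2 fold change 1.27, adjusted p = 0.113). That fold change was 1.72 without AT2 replicate 1. Col8a2, a short network-forming chain, had 4 and 19 in BASC samples, 11 and 11 in AT2 samples, and 228 and 208 in Club samples (adjusted p = 0.0280 in BASC and 0.0241 in AT2). The calls of Col8a2 ended without either Club replicate, with adjusted p between 0.165 and 0.223, without BASC replicate 1 for BASC (0.0641), and without either AT2 replicate for AT2 (0.0710 and 0.0748). Col8a1, its partner chain, was listed at 0 in BASC and in AT2, and had 40 and 35 in Club samples, so it was at least 11.1-fold lower in BASC (adjusted p = 0.0191) and at least 13.6-fold lower in AT2 (adjusted p = 0.0127). Its calls were lost without either replicate of BASC (0.0518 and 0.0553) or of AT2 (0.0519 and 0.0541).

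Fibrillar collagens had low values in every population. All 10 of these members (Col1a1, Col1a2, Col2a1, Col3a1, Col5a1, Col5a2, Col5a3, Col11a1, Col11a2 and Col27a1) stayed below 100 in every sample, as did 33 of the 76 members. Col1a1 had 27 and 8 in BASC samples, 44 and 12 in AT2 samples, and 8 and 54 in Club samples. Col3a1 had 0 and 2 in BASC samples, 99 and 0 in AT2 samples, and 20 and 24 in Club samples. The higher AT2 value came from replicate 1, the library in which the fibroblast markers Dcn and Pdgfra stood at 34 and 37, Lama2 at 88 and Itga11 at 121; in AT2 replicate 2 these 4 stood at 0, 0, 0 and 5. Col5a1 had 44 and 91 in BASC samples, 14 and 1 in AT2 samples, and 1 and 11 in Club samples, without a call. Col17a1, the hemidesmosome collagen of basal epithelia, had 7 and 5 in BASC samples, 23 and 6 in AT2 samples, and 15 and 74 in Club samples, also without a call.

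Egfl6 and Chad had the largest fitted log2 differences of the tested members against Club cells, in BASC and in AT2. Egfl6 (ENSMUSG00000000402, chromosome X, 166523007 to 166585720) encodes a secreted EGF-repeat protein that binds an integrin through an RGD motif. It had 5280 and 5557 in BASC samples, 7324 and 8424 in AT2 samples, and 14 and 6 in Club samples, 542-fold higher in BASC (log2 fold change 9.05 ± 0.34) and 787-fold higher in AT2 (9.58 ± 0.34, adjusted p = 6.92e-06) than in Club cells. Per kb of exon it was the highest of the members in both BASC and AT2, at means of 2004 and 2912. Itga8, whose product pairs with Itgb1 to bind Egfl6 in mouse skin, stayed at 12 or below in every sample. Chad (ENSMUSG00000039084, chromosome 11, 94565047 to 94569127) encodes chondroadherin, a leucine-rich repeat protein of cartilage that binds collagen and an integrin. It had 19 and 14 in BASC samples, 7 and 11 in AT2 samples, and 5851 and 5040 in Club samples, 330-fold lower in BASC (-8.29 ± 0.49, adjusted p = 8.69e-05) and 605-fold lower in AT2 (-9.11 ± 0.49, adjusted p = 3.49e-05). Per kb, Chad was the highest member in Club cells, at a mean of 3241, and the next was Col23a1 at 854. Neither gene differed in BASC from AT2 by a call (adjusted p = 0.568 for Egfl6 and 0.548 for Chad).

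The stretch before Chad is given because Chad led the members in Club cells. It is chr11:94564797-94565046 on the plus strand, with capitals as above.
Chad: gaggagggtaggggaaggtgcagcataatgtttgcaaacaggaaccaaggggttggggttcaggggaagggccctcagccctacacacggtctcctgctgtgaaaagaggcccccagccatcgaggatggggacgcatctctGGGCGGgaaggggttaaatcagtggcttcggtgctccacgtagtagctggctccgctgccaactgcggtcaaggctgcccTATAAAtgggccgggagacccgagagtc
It held a GC box and, close to the start, a TATA box, which 32.7% and 12.4% of promoter windows of that length hold.

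**Figure D4:**
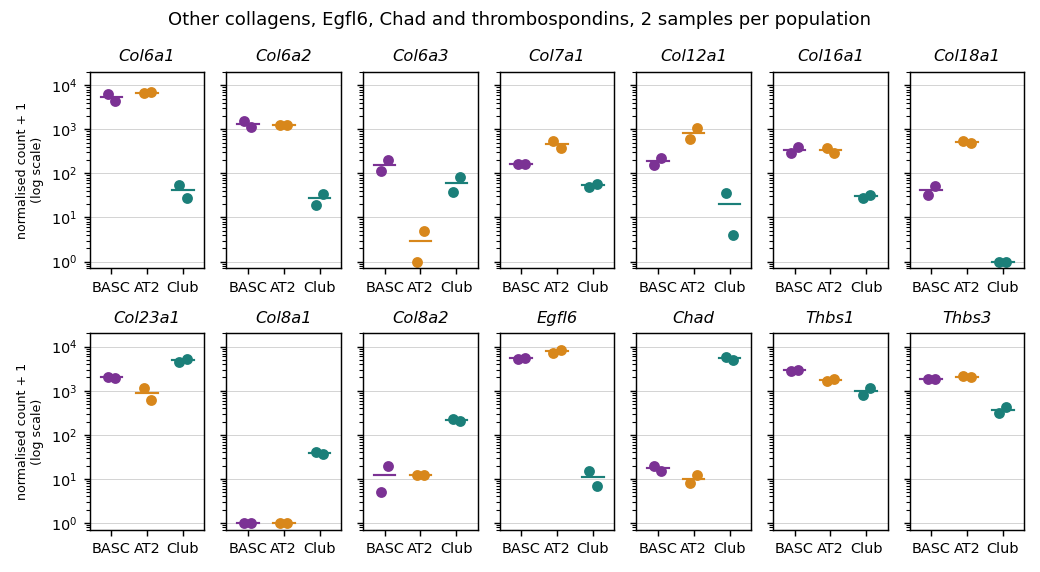
Normalised read counts plus 1 on a log axis for other collagens, Egfl6, Chad and the thrombospondins, with 1 point per sample and a line at the mean of each population (BASC, AT2, Club). Col6a1, Col6a2 and Egfl6 are lowest in Club cells, Chad, Col8a1 and Col8a2 are highest there, and Col6a3 and Thbs1 are highest in BASC.

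Among integrin subunits, BASC exceeded Club cells in 3 of 13 alpha chains, and so did AT2. Of 9 beta chains, 1 was lower in BASC, and 1 was higher and 3 lower in AT2. Of these chains, 11 alpha and 7 beta were tested. Over all genes tested, 5.77% were called higher and 5.42% lower in BASC, and 8.42% and 9.71% in AT2. Itgb1, the common beta subunit of collagen and laminin receptors, had 6133 and 4145 in BASC samples, 5479 and 4948 in AT2 samples, and 3192 and 2957 in Club samples. It was 1.70-fold higher in AT2 than in Club cells (adjusted p = 0.0301), a call lost without any AT2 or Club library (adjusted p between 0.0577 and 0.134), under quantile normalization (0.0840) and without a trend in the variance model (0.207). Its 1.67-fold difference in BASC missed the threshold (adjusted p = 0.0521). The log2 fold change there was 0.715 with all samples and 0.997 without BASC replicate 2.

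Itga9 stood apart among the alpha chains. Its product pairs with Itgb1 and binds tenascin, osteopontin and a splice form of fibronectin. It had 4559 and 5262 in BASC samples, 7754 and 9336 in AT2 samples, and 294 and 384 in Club samples, 14.5-fold higher in BASC (log2 fold change 3.86 ± 0.18, adjusted p = 3.70e-05) and 25.2-fold higher in AT2 (4.66 ± 0.18, adjusted p = 8.57e-06) than in Club cells. BASC lay 1.74-fold below AT2 without a call (adjusted p = 0.124). Its level per kb, with means of 638 in BASC and 1111 in AT2, was the highest of the alpha chains in both.

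The laminin-binding alpha chains Itga3, Itga6 and Itga7 were found in all populations, each called in 1 comparison. Itga3 had 1712 and 1689 in BASC samples, 1455 and 1315 in AT2 samples, and 1170 and 1096 in Club samples. Both BASC samples were above all others, and the log2 difference of 0.59 from Club cells was called (adjusted p = 0.0383). That call was lost without any BASC or Club library, with adjusted p between 0.110 and 0.278. Itga6 had 828 and 370 in BASC samples, 1341 and 1069 in AT2 samples, and 393 and 470 in Club samples. It was 2.79-fold higher in AT2 than in Club cells (adjusted p = 0.0317), but not without AT2 replicate 1 (0.151), AT2 replicate 2 (0.0972) or Club replicate 1 (0.105). Itga7 had 808 and 1252 in BASC samples, 1332 and 1292 in AT2 samples, and 340 and 588 in Club samples, 2.83-fold higher in AT2 (adjusted p = 0.0139; 0.0775 and 0.0755 without AT2 replicate 1 or 2). The 2.22-fold difference of Itga7 in BASC from Club cells was not called (adjusted p = 0.0542). Its log2 fold change was 1.17 with all samples and 1.56 without Club replicate 2.

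Itgb4, Itgb5 and Itgb6 were higher in Club cells. Itgb4, the hemidesmosome partner of Itga6, had 130 and 246 in BASC samples, 216 and 90 in AT2 samples, and 1060 and 950 in Club samples. BASC lay 5.35-fold below Club cells (log2 difference -2.48 ± 0.48, adjusted p = 0.0184) and AT2 6.57-fold below them (adjusted p = 0.00695). Without a trend in the variance model both calls were lost (0.0986 in BASC and 0.0531 in AT2). In BASC the call was lost without BASC replicate 1 (0.109), BASC replicate 2 (0.0584) or Club replicate 1 (0.0724). The summed basal markers, mostly Krt15 there, and the ciliated markers were also highest in the Club samples. Their part in the Itgb4 values was not tested. Itgb5 and Itgb6 pair with Itgav, and the Itgb6 receptor is known for activating latent TGF-beta in epithelium. Itgb6 had 272 and 338 in BASC samples, 115 and 149 in AT2 samples, and 359 and 653 in Club samples, 3.83-fold lower in AT2 than in Club cells (adjusted p = 0.0126; 0.0661 without AT2 replicate 1 and 0.114 without Club replicate 2). Itgb5 had 178 and 225 in BASC samples, 115 and 55 in AT2 samples, and 559 and 395 in Club samples, 5.61-fold lower in AT2 (adjusted p = 0.00763, and 0.0571 without Club replicate 1). For both genes BASC lay between the other populations without overlap and was not called against either. Itgav itself had 1412 and 1444 in BASC samples, 1872 and 1507 in AT2 samples, and 1352 and 1247 in Club samples, with no call. Its log2 difference in BASC against Club cells had a 95% interval from -0.23 to 0.50.

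Itga1, Itga2 and Itga5 stayed at 465 normalised counts or less in every sample. Itga1, a collagen receptor subunit, had 465 and 353 in BASC samples, 217 and 200 in AT2 samples, and 205 and 209 in Club samples. Both BASC samples were above all others, without a call against AT2 (log2 fold change 0.96 ± 0.28, adjusted p = 0.208) or Club cells (0.97 ± 0.28, adjusted p = 0.0753). Itga5, the fibronectin receptor subunit, had 277 and 249 in BASC samples, 262 and 110 in AT2 samples, and 71 and 31 in Club samples. It was 5.16-fold higher in BASC than in Club cells (adjusted p = 0.0407), a call lost without BASC replicate 1 (0.163), BASC replicate 2 (0.151) or Club replicate 2 (0.176). Itga2, the other main collagen receptor subunit of epithelia, had 47 and 0 in BASC samples, 11 and 9 in AT2 samples, and 39 and 18 in Club samples. Itgb2, the leukocyte beta subunit, was listed at 0 in BASC and AT2 and had 1 and 12 in Club samples, and Itgb8 reached at most 15. The beta subunit gene Itgb2l had 90 and 184 in BASC samples, 129 and 243 in AT2 samples, and 110 and 45 in Club samples, without a call.

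**Figure D5:**
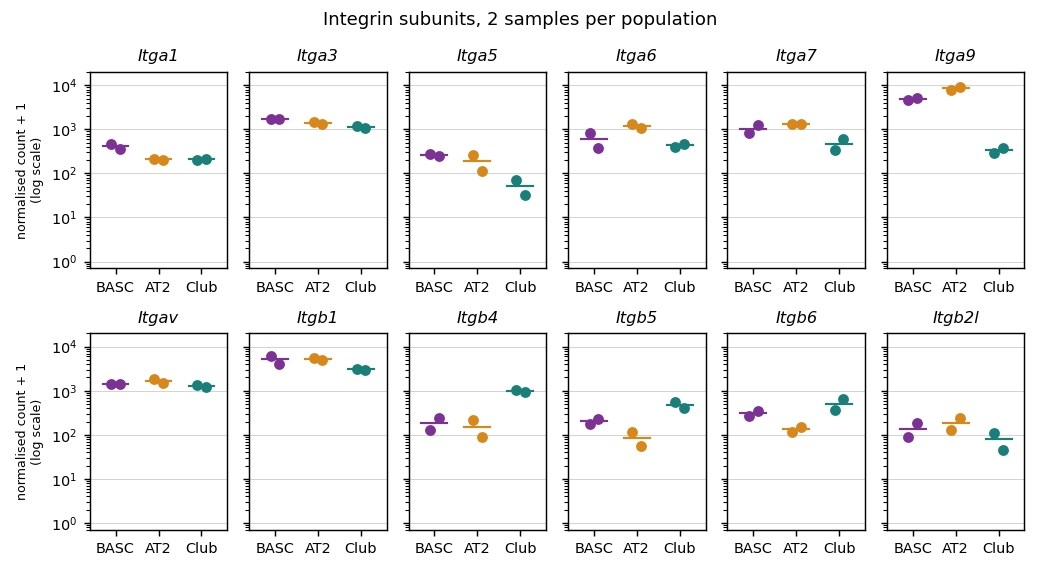
Normalised read counts plus 1 on a log axis for 12 integrin genes, with 1 point per sample and a line at the mean of each population (BASC, AT2, Club). Itga9 is lowest in Club cells, at 294 and 384, where Itgb4, Itgb5 and Itgb6 are highest.

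Both thrombospondins were higher outside Club cells. Thbs1, a secreted glycoprotein that binds integrins and can activate latent TGF-beta, had 2843 and 2977 in BASC samples, 1635 and 1884 in AT2 samples, and 803 and 1169 in Club samples. It was 2.95-fold higher in BASC than in Club cells (log2 fold change 1.59 ± 0.20, adjusted p = 0.00299), a call lost without a trend in the variance model (0.0609). BASC exceeded AT2 by 1.65-fold without a call (adjusted p = 0.177). AT2 exceeded Club cells by 1.78-fold (adjusted p = 0.0242), a call lost without any 1 of the libraries other than Club replicate 2, with adjusted p between 0.0589 and 0.132. Thbs3, a pentameric relative, had 1838 and 1895 in BASC samples, 2172 and 2020 in AT2 samples, and 306 and 437 in Club samples, 5.02-fold higher in BASC (adjusted p = 0.000459) and 5.64-fold higher in AT2 (adjusted p = 0.000196). Mtx1, which overlaps Thbs3 on the other strand over 6.59% of its exon bases, lay between 104 and 158 in all samples.

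Of the 32 members called between AT2 and Club cells, the BASC mean was nearer to AT2 in 81.2%, close to the 76.9% of all 3212 genes called there. Of the 21 members called higher in AT2 than in Club cells, the BASC mean on the log2 scale was nearer to AT2 in 19, or 90.5%, and of all 1492 such genes in 84.9%. Of the 11 members called lower in AT2, BASC was nearer to AT2 in 7, or 63.6%, and of all 1720 such genes in 70.0%. Of these 11, those nearer to Club cells were Col4a6, Col6a3, Itgb5 and Itgb6. On a scale from 0 at Club cells to 1 at AT2, Itgb5 lay at 0.482. Col23a1, counted as nearer to AT2, lay at 0.503, so these 2 were close to the midpoint. Col6a3 lay at -0.309, beyond Club cells. Itga6 was among those called higher in AT2 that lay nearer to Club cells, at 0.247. Both BASC samples lay above all AT2 and Club samples for 6 of the 65 tested members (Col5a1, Col6a3, Itga1, Itga3, Lamb3 and Thbs1), where 6.22% of all genes tested did so. Their listed values lay below all others for Col10a1 and Lama4, as did 6.55% of all genes tested, but for Lama4 the listing of 0 in BASC cannot be told from the 1 in AT2 replicate 2 at this depth. Neither count was tested.

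Genes of the matrix and adhesion machinery outside the rule gave no call between BASC and AT2 in limma, in any of 7 lists. At an unadjusted p under 0.05 were 5 of 13 tested other basement membrane genes, 5 of 14 other matrix receptors and 3 of 22 integrin adaptors. The same held for 2 of 24 collagen maturation genes, 2 of 6 hemidesmosome genes and 4 of 14 integrin ligand and TGF-beta latency genes. For leukocyte integrin subunits it was 0 of 3. Over all genes tested it was 2336 of 17721, and these shares were not compared by a test. Among 13 tested genes of other basement membrane proteins, BASC exceeded Club cells in 4 and fell below them in 2 (median log2 fold change -0.08, and -0.10 over all genes). Of all genes tested, 5.77% were called higher and 5.42% lower there. The higher ones were the perlecan gene Hspg2 (1692 and 1359 in BASC samples, against 132 and 101 in Club samples, adjusted p = 9.79e-05), Sparc, Tinagl1 and Npnt. Npnt, which encodes the integrin ligand nephronectin, had 2606 and 3800 in BASC samples, 2341 and 3464 in AT2 samples, and 116 and 166 in Club samples (adjusted p = 0.000116 in BASC). Frem1 had 21 and 16 in BASC samples, against 472 and 581 in Club samples (adjusted p = 0.0167), and Ntn1, a netrin, 5 and 1 against 211 and 117 (adjusted p = 0.0101). In AT2 against Club cells 4 of the 13 were higher and 3 lower, as were 8.42% and 9.71% of all genes tested.

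Among 24 tested collagen maturation genes, the calls against Club cells were 2 higher and 1 lower for BASC, and 3 higher and 1 lower for AT2 (medians 0.00 and 0.27). Of all 17721 genes tested, 11.2% were called against Club cells in BASC and 18.1% in AT2. These shares are the background for each list. Bmp1, the procollagen C-proteinase, had 9245 and 10170 in BASC samples, 9314 and 10391 in AT2 samples, and 125 and 283 in Club samples (47.6-fold higher in BASC than in Club cells, adjusted p = 8.37e-05). P4ha1, a prolyl hydroxylase subunit, was 3.20-fold higher in BASC than in Club cells (adjusted p = 0.00470). Among 14 other matrix receptors, BASC had 4 higher and 1 lower calls against Club cells, and AT2 had 5 higher and 3 lower (medians 0.16 and 0.32). The dystroglycan gene Dag1 had 5191 and 5374 in BASC samples, against 2470 and 2529 in Club samples (adjusted p = 0.000886). Bcam, a receptor for Lama5-containing laminin, was also higher, with 5853 and 6326 in BASC samples, against 2078 and 2615 in Club samples (adjusted p = 0.00138), and the collagen receptor kinase gene Ddr1 was 3.59-fold lower (adjusted p = 0.00315).

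Among 22 tested integrin adaptor genes, the same calls were 3 higher and 5 lower for BASC, and 6 higher and 6 lower for AT2 (medians -0.02 and 0.03). The shares called over all genes tested were 11.2% for BASC and 18.1% for AT2. Tns1 had 6535 and 7004 in BASC samples, against 1217 and 1660 in Club samples (adjusted p = 0.000200), and its relative Tns2 1521 and 1738 against 3865 and 4712 (adjusted p = 0.00150). Tensins link integrin tails to actin. Of 6 hemidesmosome genes tested, 3 of which are members, BASC had 1 call against Club cells, Itgb4, and in AT2 Dst and Itga6 were higher and Itgb4 lower (medians 0.13 and 0.48). Among 14 tested genes of other integrin ligands and TGF-beta latency, BASC had 4 higher and 2 lower calls against Club cells, and AT2 had 4 higher and 4 lower (medians -0.22 and -1.04). Fn1, encoding fibronectin, had 8 and 28 in BASC samples, 49 and 2 in AT2 samples, and 1431 and 1508 in Club samples (adjusted p = 0.0204 in BASC). Ltbp3, a latent TGF-beta binding protein, was 3.82-fold higher in BASC than in Club cells (adjusted p = 0.000133), and Tgfbi had 343 and 232 in BASC against a listing of 0 in both Club samples (adjusted p = 0.000369). None of the 3 tested leukocyte integrin subunits was called in limma in any comparison, with 0 at an unadjusted p under 0.05.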

How the data were processed

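RNA was measured in 6 samples of sorted mouse lung epithelium. Per the labels' protocols, 100 pg of total RNA entered a stranded pico-input total RNA kit. Per the submitters' processing notes, FastQC, STAR 2.4.0a and featureCounts 1.4.5-p1 (Subread) were used with mm10 (GRCm38). How values were normalised, which strand setting was used and which annotation was counted is not given in the sources used here. Deposited signal values are read counts that the authors scaled by 1 factor per sample and rounded, judged from the spacing of low values, which also gave an estimate of what 1 read was worth. Rounding kept whole reads from being recovered, and no count model was run.

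All 6 samples were fitted together in limma 3.58.1 (R 4.3.3) as log2(value + 1), with moderated variances that follow a trend. A gene entered when 2 or more samples reached 10, which left 17721. Degrees of freedom were 3 residual and 4.20 prior. Each p-value was 2-sided and received a Benjamini-Hochberg adjustment across those genes, and a call needed an adjusted p under 0.05. The script was tested on simulated data. Folds are ratios of group means. A group listed at 0 was set to 3 reads per library, averaged over the group, and such folds are lower bounds that cover counting error only. Exon lengths came from GENCODE mouse release 21, where 57 of the 76 members had the deposited coordinates. Members, lists, markers and the naming rule (called members averaging 100 or more where higher, the epithelial membrane and adhesion members, and up to 4 called genes per list) were chosen with earlier results of these data known. Col8a1, members below 100 and single low genes were named after their values were seen. The values of 1 member are not reported here. Alternatives were another scaling, pseudocount, filter, gene set, variance model and sample set, the replicate block, and each library left out.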

Additional observations from a re-analysis of the deposited data

How the results depend on the processing

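Without a trend in the variance model, 10 members rather than 19 passed as higher in BASC against Club cells, and all genes called numbered 1183 rather than 1983 in BASC and 2028 rather than 3212 in AT2. Leaving out 1 library gave 3 to 8 members lower in BASC than in Club cells (7 with all samples), 6 to 12 lower in AT2 (11), 853 to 1888 genes called in BASC (1983) and 1539 to 3291 in AT2 (3212). BASC against AT2 was the least settled. Members higher in BASC, 0 in the reported fit, numbered 2 with a pseudocount of 5, 3 with at least 50 in 2 samples, 2 among protein-coding genes only, 1 when only those populations were fitted, and 0 to 2 with 1 library left out. The 1 call of a lower member was lost with no filter on low values (0 lower), with the replicate block (0 lower) and with any library left out (0 lower), and 3 members were lower when only those populations were fitted. All genes called there, 112, numbered 265 with at least 50 in 2 samples, 188 among protein-coding genes, and 3 to 112 with 1 library left out. Lone samples were assumed to vary like the other groups.

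Over all genes tested, deviations of same-numbered samples correlated at 0.00600, 0.00846 and 0.0118 in the 3 comparisons. With 2 samples per population, these values cannot tell whether same-numbered samples shared a source. With the replicate block, 22 members rather than 21 were higher in AT2 than in Club cells. Under it Col7a1 in BASC against Club cells lost its call (adjusted p = 0.0538), while Itga7 (0.0244), Itgb1 (0.0225) and Col4a3 (0.00851) in BASC and Itga5 (0.0432) in AT2 gained calls against Club cells. Quantile normalization moved the median of all genes by 0.10 in BASC and 0.13 in AT2 against Club cells on the log2 scale. In none of these settings did a called member change direction. Over all members and alternatives 2875 results kept their side of the threshold, 98 lost a call and 39 gained one. Genes under 100 normalised counts carry few reads, and calls there rest on wide errors.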
